A study of Mus musculus with 2 samples.

Results

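The genes described here are 29 genes of lipid metabolism that build, regulate, carry or export cholesterol and fatty acids, read in conventional dendritic cells from the lungs of C57BL/6 mice at 8 to 10 weeks of age. They were taken by symbol from the deposited count matrices, and all 29 were found among the 31053 features. By role they are 6 enzymes of the mevalonate steps, 11 of the sterol steps and 5 of fatty acid synthesis, here together called the 22 synthesis genes, 3 regulators, 1 sterol carrier and 3 efflux genes. The data are 2 droplet single-cell RNA libraries of dispase-released lung cells, 1 sorted on CD172a (the cDC2 library) and 1 on XCR1 (the cDC1 library). Both groups were in steady state, the labels name no treatment or altered allele in either, and the sources used here do not give how many mice went into a library.

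Cholesterol is built from acetyl-CoA through mevalonate to farnesyl diphosphate, the branch point of the pathway, and from there through squalene and lanosterol. Most of these enzymes are targets of the transcription factor SREBP-2, the product of Srebf2, which INSIG proteins hold in the endoplasmic reticulum while sterols are plentiful, whereas SREBP-1 (Srebf1) acts more on fatty acid synthesis. The nuclear receptor LXR-alpha (Nr1h3) responds to oxidised sterols and raises the exporters Abca1 and Abcg1, which load cholesterol onto lipoproteins. Dendritic cells that mature migrate to lymph nodes under the receptor CCR7, and Fscn1, an actin-bundling protein, marks that state.

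The cDC2 library held 35522193 unique molecular identifiers (UMIs, counts of captured transcripts) in 2600 dendritic cells and the cDC1 library 34642983 UMIs in 2533 cells, after cells with few genes or over 10% mitochondrial UMIs were removed. Cells with markers of another lineage, 8.29% in cDC2 and 1.59% in cDC1, were set apart, and 6 barcodes occurred in both libraries. The sort genes followed the labels, with Sirpa, which encodes CD172a, at 116 CPM (UMIs per 1000000 UMIs) in cDC2 and 4.36 CPM in cDC1, and Xcr1 at 4.93 CPM in cDC2 and 250.01 CPM in cDC1. Cells were then gated by markers into a mature state (Fscn1 with at least 3 of Cacnb3, Nudt17, Apol7c, Ccl22, Il4i1 and Socs2), a cycling state, a Ccr7-positive state of cells that fell short of the mature gate, and all others. The cDC2 library had 69 mature, 366 cycling, 1121 Ccr7-positive and 1044 other cells, and the cDC1 library 83, 315, 192 and 1943. The gates are cuts on counts and not cell types, and 13 mature cDC2 cells and 8 mature cDC1 cells lay at the edge of their gate. Each sort was a single library, so nothing was replicated or tested. A 2-fold ratio among genes at 10 CPM or more in either group was used as a rule of size, and every interval is a 95% interval of counting error. Levels are CPM of UMIs counted at the 3' end, not per length, and doublets were not removed.

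The promoters of 5 members are shown because they belong to genes that parted in the mature state described further on: Idi1, Hmgcs1 and Cyp51 were higher there in both libraries, whereas Ebp and Srebf2 were within 2-fold. Each is the RefSeq window of the assembly GRCm38.p6 from 250 bases before to 50 bases after the transcription start, read on the strand of the gene. Capitals mark CCAAT on either strand, the box bound by NF-Y, a common partner of SREBP, and TCACNCCA on either strand, a form of the sterol regulatory element.
Idi1, chr13:8885356-8885655, plus strand: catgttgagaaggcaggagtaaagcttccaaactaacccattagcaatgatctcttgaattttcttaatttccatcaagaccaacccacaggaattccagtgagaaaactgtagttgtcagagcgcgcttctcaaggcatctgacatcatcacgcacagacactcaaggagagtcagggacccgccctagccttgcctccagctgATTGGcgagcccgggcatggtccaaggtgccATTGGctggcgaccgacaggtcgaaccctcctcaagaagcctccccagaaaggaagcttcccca
Hmgcs1, chr13:119690101-119690400, plus strand: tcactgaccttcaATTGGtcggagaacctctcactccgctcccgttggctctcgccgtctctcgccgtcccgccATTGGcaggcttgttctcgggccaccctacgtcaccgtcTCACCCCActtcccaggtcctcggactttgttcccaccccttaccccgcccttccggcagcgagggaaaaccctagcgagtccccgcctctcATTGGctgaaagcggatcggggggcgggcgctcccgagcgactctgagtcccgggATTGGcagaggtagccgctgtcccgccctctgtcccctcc
Cyp51, chr5:4104648-4104947, minus strand: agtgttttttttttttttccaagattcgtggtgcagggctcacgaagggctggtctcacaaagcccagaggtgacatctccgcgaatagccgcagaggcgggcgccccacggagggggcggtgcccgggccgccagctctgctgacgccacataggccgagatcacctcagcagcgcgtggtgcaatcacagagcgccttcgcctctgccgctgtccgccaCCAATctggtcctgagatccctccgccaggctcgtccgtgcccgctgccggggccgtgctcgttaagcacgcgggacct
Ebp, chrX:8193463-8193762, minus strand: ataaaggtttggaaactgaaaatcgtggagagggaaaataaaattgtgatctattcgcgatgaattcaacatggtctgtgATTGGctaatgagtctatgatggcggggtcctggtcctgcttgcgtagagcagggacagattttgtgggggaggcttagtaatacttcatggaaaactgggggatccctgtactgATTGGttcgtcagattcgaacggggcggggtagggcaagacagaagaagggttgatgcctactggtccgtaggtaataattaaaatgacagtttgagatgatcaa
Srebf2, chr15:82147019-82147318, plus strand: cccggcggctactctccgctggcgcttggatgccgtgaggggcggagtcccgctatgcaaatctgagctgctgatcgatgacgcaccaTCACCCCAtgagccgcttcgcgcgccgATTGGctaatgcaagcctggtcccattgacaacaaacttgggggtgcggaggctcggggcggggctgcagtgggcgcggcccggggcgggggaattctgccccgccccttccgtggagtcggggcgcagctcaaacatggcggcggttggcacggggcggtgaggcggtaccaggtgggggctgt

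A promoter window was matched by symbol for 22 of the 29 members, in 28 windows since some genes have several starts. Fdps, Fdft1, Sqle, Scd1, Scd2, Abcg1 and Stard4 had none in the table used. CCAAT was found in 16 of the 20 windows of synthesis genes (80.0%) and in 20 of the 28 windows of all members (71.4%). The same letters were in 37.4% of all 32851 windows and in 36.8% of the 6720 windows of genes at 10 CPM or more in either library. The 3 windows of the efflux genes Abca1 and Nr1h3 held none. TCACNCCA was found in 3 windows, as TCACCCCA at position -137 of Hmgcs1 and position -162 of Srebf2 and as TCACTCCA at position -177 of Msmo1, counted from the start of transcription, against 4.36% of all windows. No match of TCACNCCA overlapped a CCAAT match in these windows. The E-box form TCACGTGA, in 0.974% of all windows, and the LXR-type element, AGGTCA repeated after a spacer of 4 bases, in 0.0152%, were in no window of a member on either strand. Hmgcs1 and Srebf2 share TCACCCCA and CCAAT, and Ebp holds CCAAT in 2 places.

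Across the whole sorts, the pathway differed little between cDC2 and cDC1. No member of the 18 at 10 CPM or more in a library was 2-fold higher or lower in cDC2, where 7.37% of 6558 measured genes were 2-fold higher and 5.87% were 2-fold lower. The 22 synthesis genes summed to 421 CPM in the cDC2 library, against 376 CPM in the cDC1 library, a ratio of 1.12 (1.09 to 1.15). The median log2 ratio over all 29 members was 0.26, beside 0.02 over all measured genes. The sorts held unlike shares of the states. Among cells of the state called other alone, 19 of the 29 members were measured. Of these 19, 2 were 2-fold higher in cDC2 and none was 2-fold lower, where 9.35% of 6513 measured genes were higher and 5.45% were lower. The higher members were Idi1, at 22.9 CPM in cDC2 and 10.7 CPM in cDC1, and Mvd, at 14.7 CPM in cDC2 and 6.89 CPM in cDC1. The median log2 ratio there was 0.58 over all members, beside 0.11 over all measured genes. In that state the synthesis genes summed to 450.1 CPM in cDC2 and 339 CPM in cDC1. The efflux genes summed to 26.3 and 12.98 CPM in the same order, and both sums lay wider apart than in the whole sorts.

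The mevalonate enzymes summed to 144 CPM in cDC2 and 129.9 CPM in cDC1. Fdps, which makes farnesyl diphosphate, was at 37.1 CPM in cDC2 and 42.6 CPM in cDC1, and Pmvk, the second of the mevalonate kinases, at 31.0 and 33.7 CPM in the same order. These are the members of highest level in that group, and the libraries lay within 1.15-fold of each other for both. The largest ratio of a measured member in the comparison was that of Mvd, the decarboxylase that ends the mevalonate steps, at 13.6 CPM in cDC2 and 8.31 CPM in cDC1 (1.64-fold, 1.41 to 1.90). The sterol enzymes summed to 166 CPM in cDC2 and 136 CPM in cDC1. Ebp, a sterol isomerase late in the pathway, was at 62.0 CPM in cDC2 and 49.1 CPM in cDC1, and Cyp51, the lanosterol demethylase, at 35.5 CPM in cDC2 and 25.7 CPM in cDC1 (1.38-fold, 1.26 to 1.504). Both intervals lay above 1, at a size well under the 2-fold rule.

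Fatty acid synthesis was level between the sorts, with a sum of 111 CPM in cDC2 and 110.4 CPM in cDC1. Acly, which makes cytosolic acetyl-CoA for both branches, was at 51.5 CPM in cDC2 and 41.9 CPM in cDC1, and Fasn, the fatty acid synthase, at 27.6 CPM in cDC2 and 30.9 CPM in cDC1. Srebf2 had the highest level of the regulators, 133 CPM in cDC2 and 152 CPM in cDC1, and Insig1 followed at 26.7 and 26.2 CPM in the same order. Stard4, a cytosolic sterol carrier, was at 13.1 CPM in cDC2 and 11.6 CPM in cDC1.

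The 11 members under 10 CPM in both libraries were Mvk, Fdft1, Lss, Tm7sf2, Nsdhl, Hsd17b7, Dhcr7, Scd1, Srebf1, Abca1 and Nr1h3. Among them Abca1 had 103 UMIs in cDC2 cells and 6 UMIs in cDC1 cells (16.7-fold, 7.43 to 46.7). Tm7sf2, a sterol reductase, had 83 UMIs in cDC2 and 23 in cDC1 (3.52-fold, 2.20 to 5.85), and Nr1h3 had 51 UMIs in cDC2 and 22 in cDC1 (2.26-fold, 1.35 to 3.91). These low levels fall outside the rule of size and were named after their values were seen. The efflux genes together summed to 22.4 CPM in cDC2 and 16.0 CPM in cDC1 (1.40-fold, 1.25 to 1.56), and Abcg1, the most abundant of them, was at 18.0 CPM in cDC2 and 15.2 CPM in cDC1. The cells set apart as other lineages, mostly macrophages by their markers in the cDC2 library, held Abca1 at 31.4 CPM in the cDC2 library and 56.0 CPM in the cDC1 library. The summed macrophage list of 7 markers ranged from 49.6 to 229.6 CPM over the cDC2 states and from 1.80 to 7.66 CPM over the cDC1 states, and its part in the Abca1 values was not tested. In a list of 34 other genes of the pathways, 22 were at 10 CPM or more. Of these 2 were 2-fold higher in cDC2 and 2 were 2-fold lower, where 7.37% of 6558 measured genes were higher and 5.87% were lower. Among the higher genes Lbr, a nuclear envelope protein with sterol reductase activity, was at 51.0 CPM in cDC2 and 20.8 CPM in cDC1. The lower genes were Insig2, a retention factor like Insig1, at 8.78 CPM in cDC2 and 25.3 CPM in cDC1, and Mylip, a ubiquitin ligase, at 8.39 CPM in cDC2 and 18.6 CPM in cDC1.

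**Figure D1:**
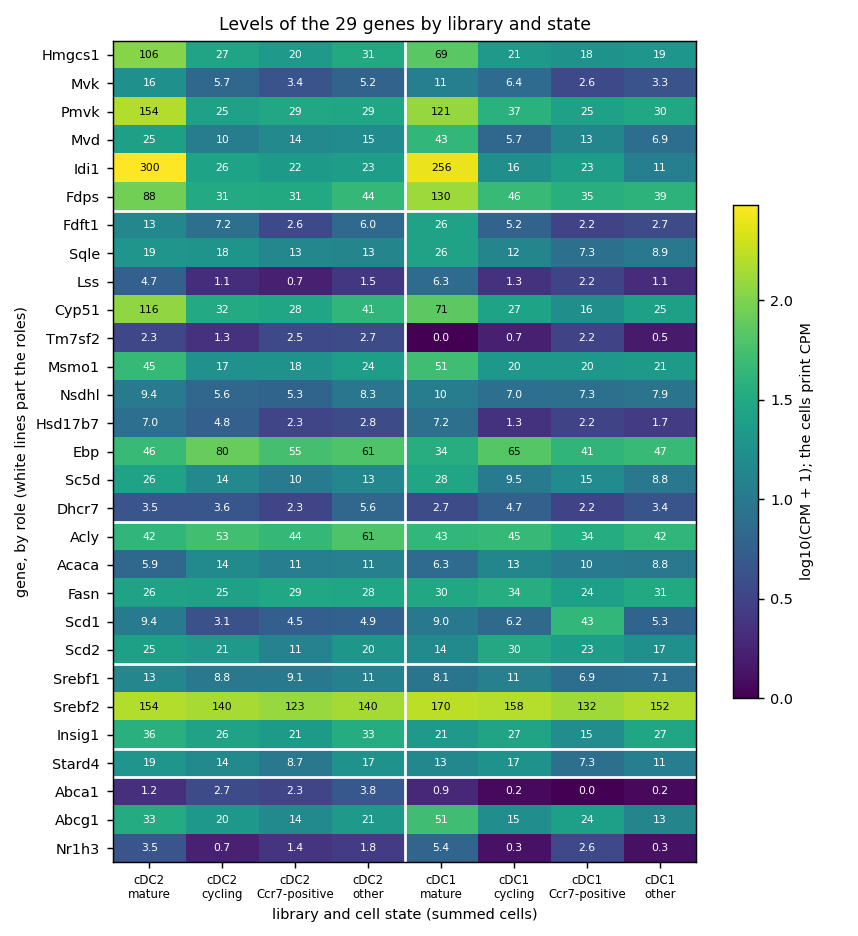
Levels of the 29 genes (rows, by role) in each cell state of the cDC2 and cDC1 libraries (columns). Colour is log10 of CPM plus 1, and the printed number is CPM of the summed cells. The brightest cells are Idi1 in the mature columns, at 300.4 CPM in cDC2 and 256 CPM in cDC1, and the Srebf2 row is even across states.

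The largest differences of the pathway lay between mature cells and the other cells of the same library. In the cDC2 library 21 of the 29 members were measured, at 10 CPM or more in either state. Of these 6 were 2-fold higher in mature cells and none was 2-fold lower, where 12.6% of 6851 measured genes were 2-fold higher and 11.5% were 2-fold lower. In the cDC1 library 19 of the 29 were measured. Of these 12 were 2-fold higher and none was 2-fold lower, where 15.6% of 6574 measured genes were higher and 14.3% were lower. The 6 genes called in cDC2 were all among the 12 called in cDC1. They are Hmgcs1, Mvk, Pmvk, Idi1, Fdft1 and Cyp51. The overlap of calls over all measured genes is not given here, so this overlap is not read as particular to the pathway. Some calls could not have gone the other way, because the gene reached 10 CPM in the mature cells alone. These were Mvk and Fdft1 in the cDC2 library and Mvk, Mvd, Fdft1, Sqle and Sc5d in the cDC1 library, which leaves 4 calls in cDC2 and 7 in cDC1 on genes at 10 CPM or more in the other cells. The shares of all measured genes above still include genes that reached 10 CPM in the mature cells alone. No matched share for the remaining calls is given here. Over all members with a ratio, the median log2 ratio was 0.67 in cDC2 (29 members) and 1.54 in cDC1 (28 members), beside 0.05 and 0.03 over all measured genes.

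The mevalonate enzymes carried most of the difference. They summed to 689 CPM in mature cells and 147 CPM in other cells of the cDC2 library (4.69-fold, 4.26 to 5.15), and to 631 CPM in mature cells and 108 CPM in other cells of the cDC1 library (5.83-fold, 5.35 to 6.33). Idi1 (ENSMUSG00000058258, chr13:8885501-8892451, plus strand, GRCm38), the isomerase that interconverts the isoprene building blocks, had the highest level of any member in mature cells. It was at 300.4 CPM in mature cells, 26.2 in cycling, 21.6 in Ccr7-positive and 22.9 in other cells of the cDC2 library, and at 256, 16.1, 23.0 and 10.7 CPM in those states of the cDC1 library. Mature cells were the highest state in each library, at 13.1-fold over the other cells in cDC2 (11.03 to 15.6) and 23.9-fold in cDC1 (20.1 to 28.3).

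The high Idi1 level was spread over many cells. After every cell was thinned to 5000 UMIs, 40 of 66 mature cDC2 cells held an Idi1 UMI (60.6%, exact binomial interval 47.8 to 72.4), against 91 of 999 other cells (9.11%, 7.40 to 11.1), with shares of 68.1% and 18.4% before thinning. In cDC1 the thinned shares were 42 of 80 mature cells (52.5%, 41.0 to 63.8) and 99 of 1899 other cells (5.21%, 4.26 to 6.31), with 65.1% and 10.0% before thinning. The richest mature cell gave 11.3% of the Idi1 UMIs in cDC2 and 9.51% in cDC1, and without the 3 richest cells the level was still 245 CPM in cDC2 and 201 CPM in cDC1. Idi1 UMIs were thus found in most mature cells and in few of the others, in both sorts.

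Pmvk was at 154 CPM in mature cells, 24.96 in cycling, 28.97 in Ccr7-positive and 28.6 in other cells of cDC2, and at 121, 37.3, 25.2 and 29.7 CPM in those states of cDC1. Its ratio of mature to other cells was 5.38 in cDC2 (4.37 to 6.59) and 4.09 in cDC1 (3.37 to 4.91). Hmgcs1, the HMG-CoA synthase near the entry of the pathway, was at 106, 27.1, 20.4 and 31.4 CPM in the same 4 states of cDC2 and at 69.3, 21.0, 17.9 and 18.9 CPM in cDC1. For both genes the mature state stood apart and the other 3 states lay close together, Hmgcs1 being 3.37-fold higher in mature than in other cells in cDC2 (2.65 to 4.24) and 3.67-fold in cDC1 (2.84 to 4.67). In mature cDC2 cells 35 of the 90 Hmgcs1 UMIs came from 3 cells, without which its level was 71.4 CPM, against 31.4 CPM in other cells. Mvk, the first mevalonate kinase, rested on 14 UMIs in mature cDC2 cells and 12 in mature cDC1 cells, at 3.17-fold and 3.29-fold over other cells, and 7 of the 14 UMIs came from 3 cells, without which the cDC2 log2 ratio was 0.80 and under 2-fold.

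Fdps and Mvd passed the 2-fold rule in mature cDC1 and not in mature cDC2. Fdps was at 88.0 CPM in mature and 44.2 CPM in other cells of cDC2 (1.99-fold, 1.54 to 2.54) and at 130.5 and 38.7 CPM in cDC1 (3.37-fold, 2.81 to 4.01). Mvd was at 24.6 CPM in mature and 14.7 CPM in other cells of cDC2 (1.68-fold, 1.01 to 2.64) and at 43.2 and 6.89 CPM in cDC1 (6.26-fold, 4.45 to 8.67). The intervals of the 2 libraries did not overlap for either gene, and with 1 library per sort the difference between them was not tested.

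The sterol enzymes were mixed. Their sum was 291 CPM in mature and 179 CPM in other cells of cDC2 (1.63-fold, 1.42 to 1.85), and 263 CPM in mature and 127 CPM in other cells of cDC1 (2.06-fold, 1.82 to 2.33). Cyp51 was at 116 CPM in mature, 32.1 in cycling, 27.5 in Ccr7-positive and 41.4 in other cells of cDC2 and at 71.1, 26.6, 16.1 and 24.5 CPM in those states of cDC1. Its ratio of mature to other cells was 2.80 in cDC2 (2.24 to 3.48) and 2.897 in cDC1 (2.26 to 3.67). Fdft1, the squalene synthase that commits farnesyl units to sterols, was at 26.1 CPM in mature and 2.68 CPM in other cells of cDC1 (9.75-fold, 6.07 to 15.3). In cDC2 it was at 12.9 CPM in mature and 5.99 CPM in other cells (2.16-fold, 1.03 to 4.08), from 11 UMIs of which 7 lay in 3 cells, and without those cells the log2 ratio was -0.28.

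In cDC1 the call also held Sqle, the squalene oxygenase that is a slow step of the pathway, at 26.1 CPM in mature and 8.88 CPM in other cells (2.94-fold, 1.92 to 4.34), and 12 of its 29 mature UMIs came from 3 cells, without which the log2 ratio was 0.84 and under 2-fold. Sc5d, a late desaturase, was at 27.9 CPM in mature and 8.84 CPM in other cells of cDC1 (3.15-fold), and Msmo1, which removes methyl groups from the sterol ring, at 51.3 and 21.2 CPM (2.42-fold), with a log2 ratio of 0.95, under 2-fold, without its 3 richest cells. In cDC2 the same enzymes were higher by less than the rule, Sqle at 1.498-fold (0.836 to 2.51), Sc5d at 1.96-fold (1.20 to 3.07) and Msmo1 at 1.88-fold (1.30 to 2.64). The sterol enzyme of highest level went the other way: Ebp was at 45.8 CPM in mature, 79.5 in cycling, 55.2 in Ccr7-positive and 61.3 in other cells of cDC2 and at 34.2, 65.2, 40.9 and 46.6 CPM in those states of cDC1. Its ratio of mature to other cells was 0.746 in cDC2 (0.527 to 1.03) and 0.733 in cDC1 (0.516 to 1.01). Lss, Tm7sf2, Nsdhl, Hsd17b7 and Dhcr7 stayed under 10 CPM in both states of both libraries, with at most 11 UMIs each in mature cells, and Tm7sf2 had no UMI in the mature cDC1 cells, which allows up to 2.70 CPM.

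**Figure D2:**
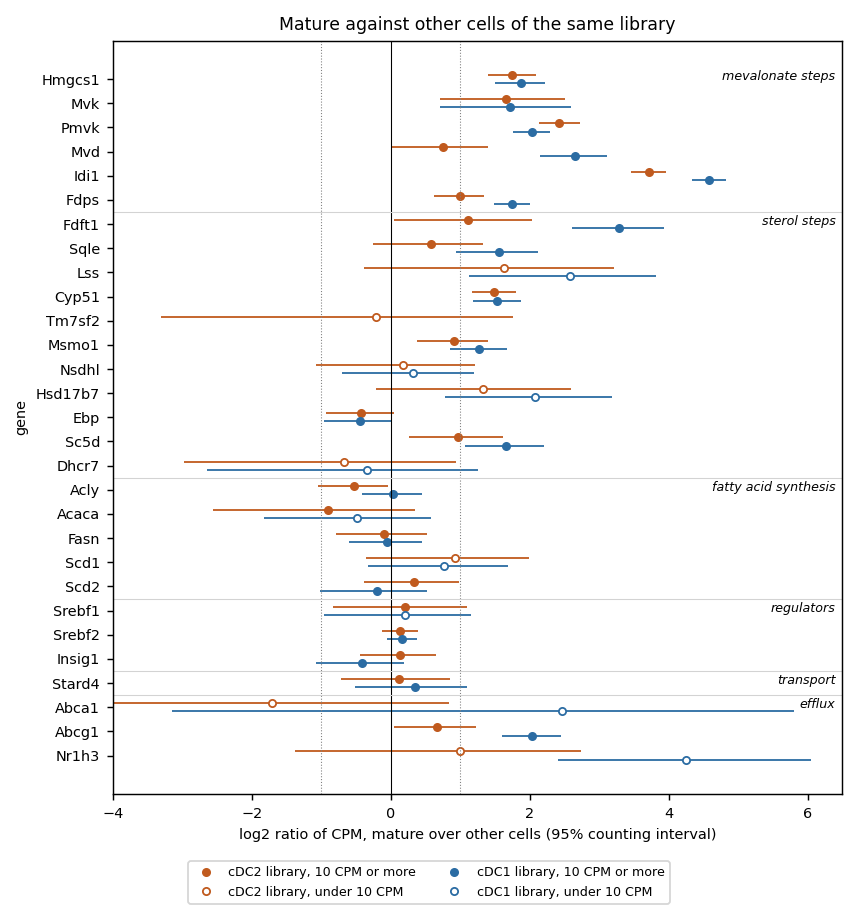
Log2 ratio of CPM, mature over other cells, for each of the 29 genes in the cDC2 (orange, upper) and cDC1 (blue, lower) library, with 95% counting intervals. Filled points reach 10 CPM in a state, dotted lines mark 2-fold, the interval of Abca1 in cDC2 runs past the left edge, and Tm7sf2 has no ratio in cDC1. Idi1 lies furthest right among filled points, at 3.71 in cDC2 and 4.58 in cDC1, and the points of the fatty acid enzymes and regulators lie between the dotted lines.

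Fatty acid synthesis did not share in the difference. Its sum was 108 CPM in mature and 124 CPM in other cells of cDC2 (0.870-fold, 0.697 to 1.07), and 103 CPM in mature and 104 CPM in other cells of cDC1 (0.990-fold, 0.813 to 1.19). Acly was at 42.2 CPM in mature, 52.6 in cycling, 43.7 in Ccr7-positive and 60.9 in other cells of cDC2 and at 43.2, 45.0, 33.6 and 42.1 CPM in those states of cDC1. The lowest ratios of measured members in cDC2 were those of Acaca, the acetyl-CoA carboxylase, at 5.87 CPM in mature and 11.02 CPM in other cells (0.533-fold, 0.170 to 1.27), of Acly (0.693-fold, 0.482 to 0.969) and of Ebp. In cDC1 the lowest were Ebp, Insig1 at 20.7 CPM in mature and 27.5 CPM in other cells (0.752-fold, 0.474 to 1.14), and Scd2, a stearoyl-CoA desaturase, at 14.4 and 16.5 CPM (0.872-fold, 0.494 to 1.43). Of these intervals only that of Acly lay below 1. Fasn was at 25.8 CPM in mature and 27.6 CPM in other cells of cDC2 and at 29.7 and 30.9 CPM in cDC1.

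The regulators were level as well. Srebf2 was at 154 CPM in mature, 140.4 in cycling, 123 in Ccr7-positive and 139.95 in other cells of cDC2 and at 170.04, 158, 132 and 152 CPM in those states of cDC1, with ratios of mature to other cells of 1.10 (0.913 to 1.31) and 1.12 (0.962 to 1.30). Insig1, itself a target of SREBP, was at 36.4 CPM in mature and 33.3 CPM in other cells of cDC2 (1.09-fold, 0.733 to 1.57). Srebf1 was at 12.9 CPM in mature and 11.2 CPM in other cells of cDC2 and at 8.10 and 7.06 CPM in cDC1. Stard4 was at 18.8 CPM in mature and 17.2 CPM in other cells of cDC2 and at 13.5 and 10.6 CPM in cDC1. The mRNA of a factor is not its activity, and SREBP is controlled by cleavage that these counts do not show.

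Of the 34 other genes of the pathways, 22 were measured in the mature comparison of each library. In cDC2 none was 2-fold higher in mature cells and 2 were lower, where 12.6% of 6851 measured genes were higher and 11.5% were lower. The lower genes in cDC2 were Lbr, at 17.6 CPM in mature and 48.9 CPM in other cells, and Ggps1, which makes geranylgeranyl diphosphate. Ggps1 was at 7.04 and 14.5 CPM, from 6 UMIs in mature cells. In cDC1 4 were higher and 3 lower, where 15.6% of 6574 measured genes were higher and 14.3% were lower. The cDC1 counts lie close to those shares and are not read as particular to the pathways. Among the higher genes Npc2, a lysosomal cholesterol carrier, was at 1022 CPM in mature and 422 CPM in other cells of cDC1 (2.42-fold, 2.28 to 2.58). The lower genes in cDC1 were Lbr at 3.60 CPM in mature and 14.4 CPM in other cells, Fads1, a fatty acid desaturase, at 6.30 and 14.1 CPM, and Cyp27a1, a sterol hydroxylase, at 13.5 and 34.7 CPM.

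The mevalonate level stepped up between cells with 3 and cells with 4 mature markers. These markers are part of the mature gate, so the bins regroup the mature cells above and are not a separate result. Fscn1, the other part of the gate, rose at the same step. It went from 44.1 to 584 CPM in cDC2 and from 199 to 858 CPM in cDC1. Among cells that were not cycling, the mevalonate sum of the cDC2 library was 203, 133, 113, 139.7, 494, 589 and 669.5 CPM in cells with 0 to 6 of the 6 markers detected. In cDC1 the same bins held 119, 102, 108, 165, 637, 596 and 550.2 CPM. Cells with 3 markers were thus near the level of cells with fewer, and cells with 4 or more were several times higher, in both libraries. The bins of 4, 5 and 6 markers held 17, 23 and 29 cells in cDC2 and 23, 43 and 26 cells in cDC1, and the bin of 4 in cDC2 is thin. Median depth over the bins ranged from 9977 to 13518 UMIs in cDC2 and from 11973 to 13616 UMIs in cDC1. Idi1 was at 31.0, 21.2, 20.99 and 28.95 CPM with 0 to 3 markers and at 147, 235 and 392 CPM with 4, 5 and 6 markers in cDC2, and at 12.03, 10.2, 12.1 and 34.1 CPM with 0 to 3 markers and 271, 245 and 204 CPM with 4, 5 and 6 in cDC1. In cDC1 its level with 3 markers was already above that with fewer, from 12 UMIs (17.6 to 59.5).

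**Figure D3:**
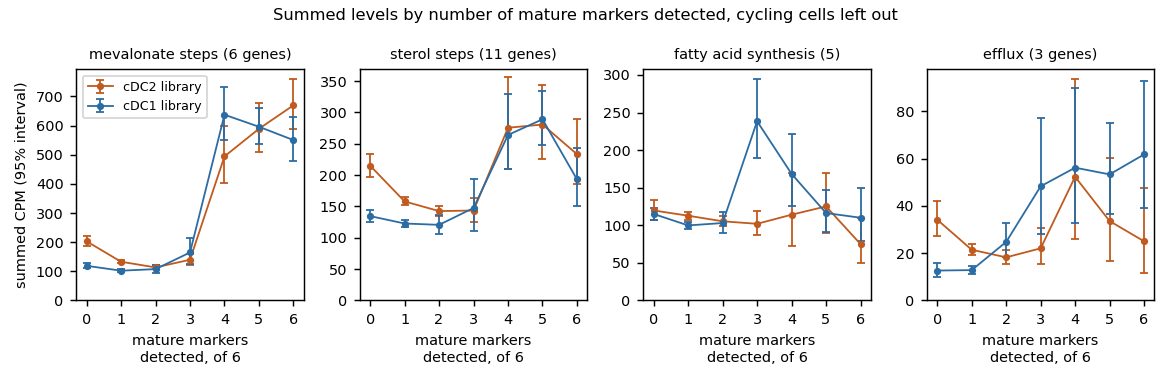
Summed CPM of the mevalonate, sterol, fatty acid and efflux genes (vertical axes, 95% counting intervals) in non-cycling cells with 0 to 6 of 6 mature markers detected (horizontal axes), in the cDC2 (orange) and cDC1 (blue) library. The mevalonate sum steps up between 3 and 4 markers in both libraries, to 494 CPM in cDC2 and 637 CPM in cDC1, and the fatty acid sum of cDC1 peaks at 3 markers with 238 CPM.

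Mature cells varied among themselves. After thinning to 5000 UMIs, the mevalonate and sterol enzymes together gave a median of 4 UMIs in mature cDC2 cells, with quartiles of 2 and 6, against a median of 1 and quartiles of 0 and 2 in other cells. In cDC1 the median was 3 UMIs in mature cells, with quartiles of 1 and 7, against 1 in other cells, with quartiles of 0 and 2. The upper quartile of the mature cells lay above that of the others, and their lower quartile fell within the range of the others, in both libraries. Over all 22 synthesis genes the richest mature cell held 30 thinned UMIs in cDC2 and 21 in cDC1, against medians of 4 and 4.

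Of the genes that tell the sorts apart, Xcr1 was at 81.9 CPM in mature and 264 CPM in other cells of cDC1, and Mgl2, a lectin of cDC2, at 407 CPM in mature and 1697 CPM in other cells of cDC2. The cDC1 genes Clec9a, Irf8, Cadm1, Wdfy4, Naaa and Itgae were also lower in mature than in other cDC1 cells, Irf8 at 796 and 1123 CPM. So were the cDC2 genes Cd209a, Clec10a, Irf4, Itgam and Cd33 in mature cDC2 cells, Cd209a at 320 and 1088 CPM. Sirpa was not lower, at 157 CPM in mature and 117 CPM in other cells of cDC2. In the cDC2 library Irf8 was at 199 CPM in mature and 68.8 CPM in other cells. The 6 markers of nonclassical monocytes did not move together. Their sum was higher in the mature state, at 262 CPM in mature and 44.2 CPM in other cells of cDC2 and at 374 and 94.3 CPM in cDC1. A single gene made most of that, Eno3, a glycolytic enolase, at 216 CPM in mature and 6.55 CPM in other cells of cDC2 and at 312 and 4.62 CPM in cDC1. Adgre4, a receptor of the same list, was at 27.0 CPM in mature and 12.6 CPM in other cells of cDC2 and at 9.90 and 0.162 CPM in cDC1. Ace and Cd300e were at 0 in the mature cells of both libraries, against 4.63 and 1.52 CPM in other cells of cDC2 and 0.122 and 0.0406 CPM in other cells of cDC1. Treml4 was lower, at 2.35 CPM in mature and 3.99 CPM in other cells of cDC2 and at 3.60 and 21.8 CPM in cDC1. Pglyrp1 was at 16.4 CPM in mature and 14.9 CPM in other cells of cDC2 and at 48.6 and 67.6 CPM in cDC1. The part of these markers in the mature values was not tested. The macrophage list went the other way in cDC2, with 83.3 CPM in mature and 229.6 CPM in other cells, and in the mature cDC1 cells 5 of its 7 genes were at 0 with a sum of 1.80 CPM against 3.12 CPM in other cells. In the cells of other lineages Idi1 was at 32.3 CPM in the cDC2 library and 16.3 CPM in the cDC1 library, below its mature level in each.

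Synthesis and efflux were then set against each other within each state. In cDC2 the efflux genes summed to 37.5 CPM in mature and 26.3 CPM in other cells (1.43-fold, 0.962 to 2.06), with 28.97 synthesis UMIs per efflux UMI in mature cells (20.4 to 42.6) and 17.1 in other cells (15.3 to 19.2). In cDC1 the efflux genes summed to 57.6 CPM in mature and 12.98 CPM in other cells (4.44-fold, 3.34 to 5.82), with 17.3 synthesis UMIs per efflux UMI in mature cells (13.4 to 22.6) and 26.1 in other cells (23.4 to 29.3). The balance thus leaned to synthesis in mature cDC2 and to efflux in mature cDC1, each against the other cells of its library, and this contrast between libraries was not tested. For the mevalonate and sterol enzymes alone the values were 26.1 UMIs per efflux UMI in mature (18.3 to 38.4) and 12.4 in other cells of cDC2 (11.1 to 13.9), and 15.5 in mature (12.04 to 20.3) and 18.2 in other cells of cDC1 (16.2 to 20.4). The cDC1 intervals overlap there, so its lean to efflux rests on counting the fatty acid genes. The cDC2 mature value rests on 32 efflux UMIs and the interval of its efflux ratio includes 1. Without Abcg1 the log2 ratio was -0.25, on 3 Nr1h3 UMIs and 1 Abca1 UMI in mature cells.

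Abcg1 accounted for most efflux UMIs. It was at 32.9 CPM in mature, 20.1 in cycling, 14.0 in Ccr7-positive and 20.7 in other cells of cDC2 and at 51.3, 15.5, 24.1 and 12.5 CPM in those states of cDC1. Its ratio of mature to other cells was 1.59 in cDC2 (1.04 to 2.35) and 4.09 in cDC1 (3.03 to 5.44), and in cDC1 17 of its 57 mature UMIs came from 3 cells. Nr1h3 had 3 UMIs in mature cDC2 cells and 6 UMIs in mature cDC1 cells, against 22 and 7 UMIs in the other cells of those libraries (2.00-fold, 0.384 to 6.67, in cDC2 and 19.01-fold, 5.28 to 66.1, in cDC1). Of the 6 mature cDC1 UMIs 5 came from 3 cells, without which the level was 0.924 CPM. Abca1 had a single UMI in the mature cells of each library. In the cells of other lineages the balance was lowest, at 7.09 synthesis UMIs per efflux UMI in the cDC2 library (6.25 to 8.07) and 4.28 in the cDC1 library (3.10 to 6.01).

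**Figure D4:**
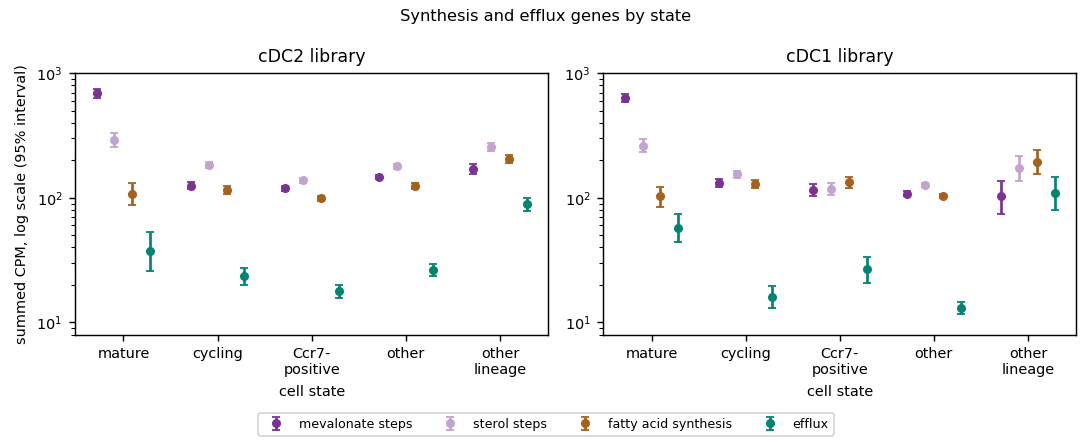
Summed CPM (log axis, 95% counting intervals) of the mevalonate, sterol, fatty acid and efflux genes in each state of the cDC2 (left) and cDC1 (right) library and in the cells set apart as other lineages. Mature cells have the highest mevalonate sums, 689 CPM in cDC2 and 631 CPM in cDC1, and the other lineages the highest efflux sums, 89.0 CPM in the cDC2 library and 109.6 CPM in the cDC1 library.

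Cycling cells differed little from the other cells. No member was 2-fold higher or lower in either library, where 5.34% of 6708 measured genes were 2-fold higher and 0.865% were 2-fold lower in cDC2, and 7.95% of 6707 were higher and 0.0745% were lower in cDC1. The synthesis sum was 425 CPM in cycling and 450.1 CPM in other cells of cDC2 (0.945-fold, 0.904 to 0.988), and 415 CPM in cycling and 339 CPM in other cells of cDC1 (1.22-fold, 1.17 to 1.28). The cDC1 value is close to the median of all measured genes, a log2 ratio of 0.29 against 0.21, and with TMM scaling it was 0.04. The median log2 ratio over the 29 members was -0.21 in cDC2 and 0.24 in cDC1, beside 0.09 and 0.21 over all measured genes.

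The largest ratios in cycling cDC2 cells were those of Sqle at 18.4 CPM against 12.5 CPM in other cells (1.47-fold, 1.15 to 1.86), Ebp (1.30-fold, 1.16 to 1.45) and Acaca (1.27-fold, 0.974 to 1.66). The smallest were those of Mvd at 9.96 CPM in cycling and 14.7 CPM in other cells (0.678-fold, 0.508 to 0.896), Fdps (0.710-fold, 0.605 to 0.831) and Msmo1 (0.710-fold, 0.569 to 0.880). In cycling cDC1 cells Scd2 led at 30.5 CPM against 16.5 CPM in other cells (1.85-fold, 1.54 to 2.20), followed by Stard4 (1.63-fold, 1.29 to 2.05) and Srebf1 (1.55-fold, 1.15 to 2.06). No measured member had an interval below 1 in cycling cDC1 cells, the smallest ratios being those of Msmo1 (0.953-fold) and Insig1 (0.978-fold). Of the 22 other pathway genes measured in each library 1 was 2-fold higher and none was lower. Of all measured genes 5.34% were higher in cDC2 and 7.95% in cDC1. That gene, Lbr, was at 101 CPM in cycling and 48.9 CPM in other cells of cDC2 (2.06-fold) and at 54.4 and 14.4 CPM in cDC1 (3.79-fold).

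The Ccr7-positive state, below the mature gate, covered 43.1% of the cDC2 cells and 7.58% of the cDC1 cells. It was not free of mature markers: in cDC1 Ccl22 was at 4790 CPM in Ccr7-positive and 814 CPM in other cells, and Il4i1 at 129.5 and 3.89 CPM. In cDC2 no member was 2-fold higher or lower, where 0.817% of 6244 measured genes were higher and 1.62% were lower. Of the 29 ratios 26 were below 1, counting 10 members under 10 CPM in both states. The share of all genes below 1 is not given here, and the median of all measured genes was itself below 1. The synthesis sum was 357 CPM in Ccr7-positive and 450.1 CPM in other cells of cDC2 (1.26-fold lower, 1.22 to 1.31), beside a median log2 ratio of -0.17 over all measured genes and -0.45 over the members. With TMM scaling the synthesis difference shrank to a log2 ratio of -0.13. The smallest ratios were those of Stard4 at 8.73 CPM in Ccr7-positive and 17.2 CPM in other cells (0.506-fold, 0.404 to 0.632), Scd2 at 11.5 and 19.6 CPM (0.586-fold, 0.479 to 0.715) and Insig1 at 21.2 and 33.3 CPM (0.638-fold, 0.550 to 0.740). The largest were close to 1, with Fasn at 1.04-fold, Sqle at 1.03-fold and Pmvk at 1.01-fold. The macrophage list also moved, with 58.5 CPM in Ccr7-positive and 229.6 CPM in other cells of cDC2, and its part in these ratios was not tested.

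In cDC1 2 members were 2-fold higher in Ccr7-positive cells and none was lower, where 5.13% of 6222 measured genes were higher and 4.24% were lower. Scd1 (ENSMUSG00000037071, chr19:44394455-44407879, minus strand, GRCm38), a desaturase that makes oleic acid, was at 8.997 CPM in mature, 6.19 in cycling, 42.7 in Ccr7-positive and 5.31 in other cells of cDC1. In cDC2 it was at 9.39, 3.09, 4.46 and 4.95 CPM in the same states. The Ccr7-positive cDC1 cells were the only dendritic state of the 8 above 10 CPM, at 8.04-fold over the other cDC1 cells (6.21 to 10.4), and Scd1 was measured there through that state alone. After thinning, 19 of 185 Ccr7-positive cells held an Scd1 UMI (10.3%, 6.30 to 15.6), against 44 of 1899 other cells (2.32%, 1.69 to 3.10), with 19.3% and 5.61% before thinning. The richest cell gave 16 of the 117 UMIs, and without the 3 richest the level was 27.5 CPM.

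Scd1 was higher in cDC1 cells with many Ccr7 UMIs, and in cDC2 it was even across Ccr7 counts. In cells neither mature nor cycling, it was at 5.49, 2.97, 5.18, 21.2 and 80.4 CPM in cDC1 cells with 0, 1, 2 to 4, 5 to 9 and 10 or more Ccr7 UMIs. In cDC2 the same bins held 5.30, 3.88, 5.75, 4.23 and 4.05 CPM. The cDC1 bin of highest Ccr7 held 81 cells with 101 Scd1 UMIs, and the cDC2 bin 610 cells with 35. By mature markers, Scd1 in cDC1 was at 13.1 CPM with 2 markers, 145 CPM with 3, 36.3 CPM with 4, 42.0 CPM with 5 and 2.68 CPM with 6, and the bin of 3 markers held 26 cells. Among these bins Scd1 was highest in cDC1 cells with 3 markers, where Idi1 was at 34.1 CPM. These bins were chosen after the Scd1 value was seen.

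**Figure D5:**
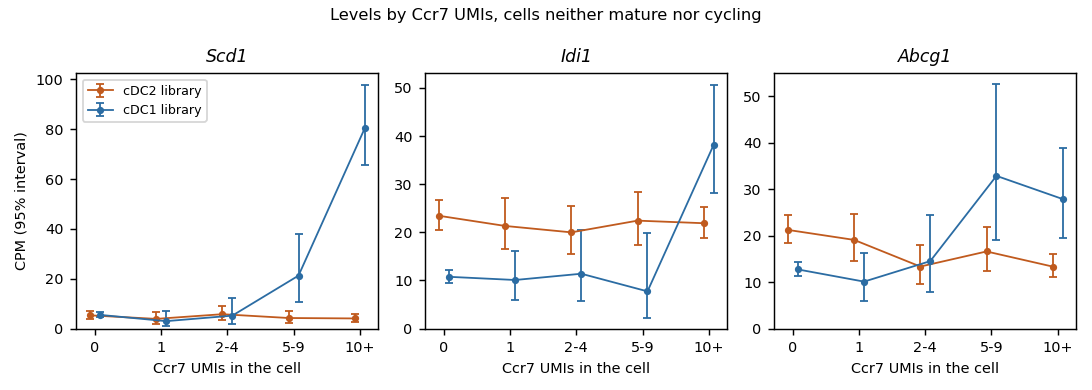
CPM of Scd1, Idi1 and Abcg1 (vertical axes, 95% counting intervals) in cells neither mature nor cycling, binned by Ccr7 UMIs (horizontal axes), in the cDC2 (orange) and cDC1 (blue) library. Scd1 reaches 80.4 CPM in cDC1 cells with 10 or more Ccr7 UMIs and stays between 3.88 and 5.75 CPM in cDC2.

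Idi1 was the other member called, at 23.0 CPM in Ccr7-positive and 10.7 CPM in other cells of cDC1 (2.15-fold, 1.60 to 2.84), and 20 of its 63 UMIs came from 3 cells, without which the level was 16.0 CPM and the log2 ratio 0.58, under 2-fold. Abcg1 came next at 24.1 CPM in Ccr7-positive and 12.5 CPM in other cells (1.92-fold, 1.45 to 2.51). The smallest ratios in Ccr7-positive cDC1 cells were those of Insig1 at 15.3 and 27.5 CPM (0.557-fold, 0.398 to 0.762), Cyp51 at 16.1 and 24.5 CPM (0.654-fold, 0.470 to 0.889) and Stard4 at 7.30 and 10.6 CPM (0.689-fold, 0.414 to 1.09). The synthesis sum was 366 CPM in Ccr7-positive and 339 CPM in other cells of cDC1 (1.08-fold, 1.01 to 1.15), and the efflux sum 26.6 and 12.98 CPM (2.05-fold, 1.57 to 2.65). The balance was 13.8 synthesis UMIs per efflux UMI in Ccr7-positive cDC1 cells (10.8 to 17.7), the lowest of the dendritic states, and 20.1 in Ccr7-positive cDC2 cells (17.8 to 22.9). Cycling cells had 18.2 in cDC2 and 26.0 in cDC1. Ccr7-positive cDC1 cells carried more Mgl2 than other cDC1 cells, 381 against 55.6 CPM, where the cDC2 library held 1513 CPM of Mgl2. They also carried more Sirpa, 19.3 against 1.01 CPM, more Cd209a, 109 against 27.1 CPM, and more Clec10a, Irf4, Itgam and Cd33. The cDC1 genes were lower in them, with Xcr1 at 209 against 264 CPM and Naaa at 174 against 565 CPM. The macrophage list summed to 7.66 CPM in Ccr7-positive and 3.12 CPM in other cells of cDC1, with F13a1 and Fn1 at 0 in the Ccr7-positive cells, and Scd1 in cells of other lineages was at 35.3 CPM in the cDC2 library and 58.3 CPM in the cDC1 library. The part of cells of the other sort or of other lineages in the Scd1 value was not tested. None of the other pathway genes was 2-fold higher or lower in Ccr7-positive cells of either library, of 20 measured in cDC2 and 21 in cDC1. Of all measured genes 0.817% were higher and 1.62% lower in cDC2, and 5.13% higher and 4.24% lower in cDC1.

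Some members overlap other annotated genes, which leaves their counts less certain where reads were shared. In GENCODE vM21, Fdps and Tm7sf2 overlap protein-coding genes on the same strand, and Cyp51, Fdft1, Mvd, Srebf1 and Acaca overlap protein-coding genes on the opposite strand. The sources used here do not say how the counting assigned such reads, or whether it used strand.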

How the data were processed

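Per the labels' protocols, lung cells were released with dispase, sorted on CD172a (cDC2) or XCR1 (cDC1), made into 10x Chromium v3.1 libraries and sequenced together in 1 lane. The deposited matrices hold raw counts of UMIs per gene and barcode. Per the submitters' processing notes these came from Cell Ranger 3.2 on mm10, and Seurat is also named there. Per the file headers the software version was 3.0.2. The sources used here do not give how barcodes were selected.

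From the counts, cells with at least 500 genes, 1000 UMIs and at most 10% mitochondrial UMIs were kept, 2835 of 3045 barcodes in cDC2 and 2574 of 2939 in cDC1. Cells with at least 3 markers of 1 of 8 other lineages at 2 UMIs or more were set apart. The rest were gated in order as mature (at least 2 Fscn1 UMIs and 3 of 6 markers), cycling (at least 3 of 12 markers), Ccr7-positive (at least 2 UMIs) and other. No doublet caller was run. UMIs were summed per library and state and divided by the total of all genes. Intervals are exact Poisson for levels, exact binomial for shares and exact conditional binomial for ratios. They cover counting error only. A count of 0 allows up to 3 UMIs. For shares, cells were thinned to 5000 UMIs, and 3 mature cells of each library were too shallow.

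Members past 2-fold, those of highest level in each library and the 3 largest ratios in each direction per state were given in full, and all 29 members are accounted for. Values of some other genes of the pathways are not reported here. The members, lists and gates were chosen with earlier results of these data known. The calculation was run on simulated Poisson counts with planted folds, the same model that the intervals assume. Such counts hold no variation between cells, mice or libraries, so the run checks the calculation and not the findings. Python 3.11.15 (numpy 2.4.6, scipy 1.17.1, pandas 2.3.3) was used, and edgeR 4.0.16 in R 4.3.3 for TMM factors only. Alternatives changed the gates, the scaling, the level and fold rules, the cell and lineage filters and single genes or cells. Leaving out the 2% of cells with most UMIs was a cut on depth, and no doublet filter was tried.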

Additional observations from a re-analysis of the deposited data

Results flagged for a closer look

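The ratio to the other cells lay on opposite sides of 1 in the 2 libraries, with neither counting interval reaching 1, for 1 gene in cycling cells and 3 genes in Ccr7-positive cells, and for sums that contain them. Of the 17 members measured in both libraries 1 did so in cycling cells, against 3% of 6200 genes measured in both, and 3 of 16 did so in Ccr7-positive cells, against 4.79% of 5761 genes. The sums are nested, since Fdps is part of the mevalonate sum and both are part of the synthesis sum. The difference between libraries was not tested, since each sort is 1 library. In cycling cells the log2 ratio of Fdps was -0.49 in cDC2 and 0.24 in cDC1, that of the mevalonate sum -0.23 in cDC2 and 0.29 in cDC1, and that of the synthesis sum -0.082 in cDC2 and 0.29 in cDC1. Over all measured genes the median log2 ratio of cycling cells was 0.09 in cDC2 and 0.21 in cDC1. In Ccr7-positive cells the log2 ratio of Sc5d was -0.45 in cDC2 and 0.72 in cDC1, that of Scd2 -0.77 in cDC2 and 0.48 in cDC1, and that of Abcg1 -0.56 in cDC2 and 0.94 in cDC1. The fatty acid sum had -0.33 in cDC2 and 0.36 in cDC1, the synthesis sum -0.34 in cDC2 and 0.11 in cDC1, and the efflux sum -0.57 in cDC2 and 1.04 in cDC1. The median over all measured genes there was -0.17 in cDC2 and -0.08 in cDC1.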

How the results depend on the processing

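No paired analysis was possible because each sort is 1 library and no result comes from a test. Of the values recomputed, 435 stayed within their counting interval or count, 74 moved beyond it and 2 changed direction. Those that changed direction were the log2 ratio of Fdft1 in mature cDC2 cells, at -0.15 with gates set after thinning and -0.28 without its 3 richest cells. The efflux sum of mature cDC2 cells, whose interval already includes 1, also turned sign under 2 settings given below. All log2 values below are of the first group over the second. Except for the state other alone, the share of all genes called under each altered setting is not given here. The counts of members under those settings therefore show only how the calls moved, and are not read as results about the pathway.
For mature over other cells in cDC2, the synthesis sum (1.27) was 1.15 with other lineages left in, 0.81 with looser gates, 1.08 with gates after thinning, 1.16 with TMM and 0.88 without its most abundant member. The efflux sum (0.52) was -0.13 with looser gates and -0.25 without Abcg1, the latter on 3 Nr1h3 UMIs and 1 Abca1 UMI in mature cells. Members higher (6) numbered 3 with looser gates and 11 at 1.5-fold, and members lower (0) numbered 2 with gates after thinning and 1 with stricter gates, with TMM, with no CPM minimum or at 1.5-fold. In cDC1 the synthesis sum (1.55) was 1.37 without mitochondrial and ribosomal genes, 1.35 with looser gates, 1.44 with TMM and 1.17 without its most abundant member. The efflux sum (2.15) was 3.82 without Abcg1, on only 6 Nr1h3 UMIs and 1 Abca1 UMI in mature cells and 7 and 4 UMIs in other cells.
For Ccr7-positive over other cells in cDC2, the synthesis sum (-0.34) was -0.41 with looser gates, -0.25 with stricter gates, -0.18 with gates after thinning and -0.13 with TMM, and the efflux sum (-0.57) was -0.86 with other lineages left in. Members lower (0) numbered 1 with the mean of per-cell CPM, without the 2% richest cells or with looser gates, 3 with no CPM minimum and 5 at 1.5-fold. In cDC1 the synthesis sum (0.11) was 0.27 with gates after thinning and the efflux sum (1.04) 2.52 without Abcg1. The latter rests on 7 Nr1h3 UMIs and 0 Abca1 UMIs in Ccr7-positive cells, against 7 and 4 UMIs in other cells. Members higher (2) numbered 1 with looser gates or a minimum of 25 CPM and 5 with no minimum or at 1.5-fold, and members lower (0) numbered 2 at 1.5-fold.
For cycling over other cells in cDC2, the synthesis sum (-0.08) was -0.15 with looser gates, -0.18 with TMM and -0.17 without its most abundant member, the efflux sum (-0.17) was -0.53 with other lineages left in and -0.73 without Abcg1, and members lower (0) numbered 2 with no CPM minimum. In cDC1 the synthesis sum (0.29) was 0.19 without mitochondrial and ribosomal genes and 0.044 with TMM, and members higher (0) numbered 4 at 1.5-fold.
For cDC2 over cDC1, the synthesis sum (0.16) was 0.22 with other lineages left in, 0.20 with the mean of per-cell CPM and 0.41 in the state other alone, and the efflux sum (0.48) was 0.69, 2.42 and 1.02 with other lineages left in, without Abcg1 and in the state other alone. Members higher (0) numbered 3 with no CPM minimum, 1 at 1.5-fold and 2 in the state other alone.
TMM moved the median of all measured genes by -0.11 and -0.12 in mature, -0.10 and -0.25 in cycling and 0.21 and 0.05 in Ccr7-positive cells of cDC2 and cDC1. Leaving out mitochondrial and ribosomal genes moved it by -0.18 at most, in mature cDC1 cells. The cause of these changes was not tested. In mature cells 3 UMIs equal 3.52 CPM in cDC2 and 2.70 CPM in cDC1, so differences of members near that level were not detectable at this depth.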
